A study of Mus musculus with 4 samples.

Results

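The collagens of bone and connective tissue were described here across the cells of the healing fracture and of trabecular bone. They are Col1a1 and Col1a2 (the chains of type I collagen), Col3a1 (type III), Col5a1 and Col5a2 (type V), and Col12a1, Col14a1 and Col16a1 (types XII, XIV and XVI). The genes were chosen by symbol alone, and all 8 were found among the 32285 features listed in the 4 matrices. The 4 single-cell libraries came from male C57BL/6J mice, 20 weeks old per the labels. They were fracture callus and trabecular bone, each from a placebo control and from mice given the glucocorticoid (GC) prednisolone at 6.25 mg/kg/d, collected at week 2. The labels give a slow-release pellet under the skin for all samples, whereas the study's text describes daily injection for the fracture model, so how the callus mice were dosed is uncertain. Each group was 1 library, and the number of mice in a library is not given in the sources used here. No difference between GC and control could therefore be set against replicate error, no test was made, and every interval below covers counting error only.

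Type I collagen is the main protein of bone matrix. Types I, III and V assemble into fibrils: type III is abundant in soft connective tissue and early repair tissue, and type V nucleates fibrils and limits their width. Col12a1, Col14a1 and Col16a1 encode fibril-associated collagens with interrupted triple helices (FACITs), which sit on the surface of fibrils and do not form them alone, so 3 of the 8 genes are fibrillar by association only. A triple helix is built of repeated triplets, each with a glycine in the same place.

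The coding sequences show that division. On the longest coding transcript of each gene, the longest unbroken run of triplets beginning with a glycine codon held 338 triplets in Col1a1, 339 in Col1a2, 344 in Col3a1, 338 in Col5a1 and 339 in Col5a2. In the FACITs it held 32 triplets in Col12a1, 32 in Col14a1 and 52 in Col16a1. The stretches below, shown for 7 of the genes, are the last 5 triplets of that run and the next 5 codons, where the run ends. Each gene also held other runs of at least 5 triplets, so the helix code need not stop there. Capitals mark the glycine codons of the run.
Col1a1: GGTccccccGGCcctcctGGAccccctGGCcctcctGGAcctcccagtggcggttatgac
Col3a1: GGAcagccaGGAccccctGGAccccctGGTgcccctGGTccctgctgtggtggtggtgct
Col5a1: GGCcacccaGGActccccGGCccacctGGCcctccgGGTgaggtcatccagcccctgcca
Col5a2: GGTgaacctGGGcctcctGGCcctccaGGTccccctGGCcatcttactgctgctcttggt
Col12a1: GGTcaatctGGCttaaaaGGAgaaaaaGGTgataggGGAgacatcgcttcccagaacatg
Col14a1: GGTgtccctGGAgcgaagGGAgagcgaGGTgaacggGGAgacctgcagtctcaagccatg
Col16a1: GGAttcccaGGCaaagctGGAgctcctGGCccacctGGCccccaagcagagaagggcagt
In Col16a1 the helix code was broken into 21 runs of at least 5 triplets, which together took up 62.9% of its codons, against 8.19% in Col12a1 and 13.97% in Col14a1. On GRCm38 the genes lie at chr11:94936224-94953042 (Col1a1), chr6:4504814-4541544 (Col1a2), chr1:45311538-45349706 (Col3a1), chr2:27886425-28039514 (Col5a1), chr1:45374321-45503282 (Col5a2, minus strand), chr9:79598991-79718831 (Col12a1, minus strand), chr15:55307750-55520803 (Col14a1) and chr4:130047840-130099283 (Col16a1), in 48 to 70 exons. Col3a1 and Col5a2 are neighbours, 24614 bases apart and on opposite strands.

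The libraries held 95852254 UMIs (counted molecules) for control callus, 64388215 for GC callus and, from trabecular bone, 41239842 for control and 45876714 for GC. After filtering, 6710, 6890, 3820 and 4603 cells remained. Cells were clustered without the 8 genes and named from markers. Pairs of libraries shared 7 to 15 cell barcodes. The GC callus matrix listed only barcodes of at least 500 UMIs, so all of them were taken as called and its empty droplets could not be read. Control callus cells were called from 1480260 barcodes with UMIs, so the cells of the callus libraries were not called alike. Callus was rich in collagen UMIs outside cells: the control callus empty droplets read 3292 CPM (UMIs scaled to the same total in each class) of Col1a1 and 4499 CPM of Col1a2. Callus B cells, which should lack collagen, read 316.7 CPM of Col1a1 in control and 373.7 CPM in GC. That level is the background against which the callus values are to be read.

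Type I collagen marked the callus osteoblast or osteocyte class (74 control and 86 GC cells). The class was made of cluster 41 (62 and 68 cells, median 15253.5 UMIs) and cluster 51 (12 and 18 cells, median 3177.5 UMIs). Cluster 51 was led by Egr1, Ccn1 and Fos, with 5 osteoblast and 5 stromal markers raised. Cluster 41 alone read 89987 CPM of Col1a1 in control and 90869 CPM in GC. Over the whole class Col1a1 stood at 86540.1 CPM in control cells (86041 to 87041, exact Poisson 95% interval) and at 90807 CPM in GC cells (90285 to 91330.1). Col1a2 stood at 64585 CPM in control and 63317 CPM in GC. The 8 genes together made up 15.6% of all UMIs of control osteoblasts and 15.9% of those of GC osteoblasts. Osteoblasts carried 11 of 12 osteoblast markers at 10 CPM or more in both libraries, with a summed level of 33327 CPM in control and 36738 CPM in GC. In chondrocytes those markers summed to 13717 and 21289 CPM. Cells within the class varied far more than the libraries did: the quartiles of cells ran from 30759.8 to 120457 CPM of Col1a1 in control and from 14927 to 132423 CPM in GC, and the ranges overlapped.

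The other callus classes followed in steps. Cluster 39, an unnamed cluster led by C1qtnf3, Ibsp and Ecrg4 (47 control and 107 GC cells), read 44547 CPM of Col1a1 in control and 34842 CPM in GC. Cluster 38, also unnamed and led by Ecrg4, Mmp13 and Fmod (50 and 104 cells), read 24407 CPM and 23346 CPM. Stromal cells (116 and 93) read 19437 CPM and 27920 CPM, so clusters 38 and stromal changed places between the libraries. Chondrocytes (2011 and 2475) read 3673 CPM and 7325 CPM, and hypertrophic chondrocytes (504 and 318) read 1674 CPM and 2238 CPM. Endothelial cells read 400.8 CPM and 274.8 CPM, which lies near the B cell level. Among neutrophils, T or NK cells, macrophages and osteoclasts the order of Col1a1 is not read, since all were at that background.

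**Figure D1:**
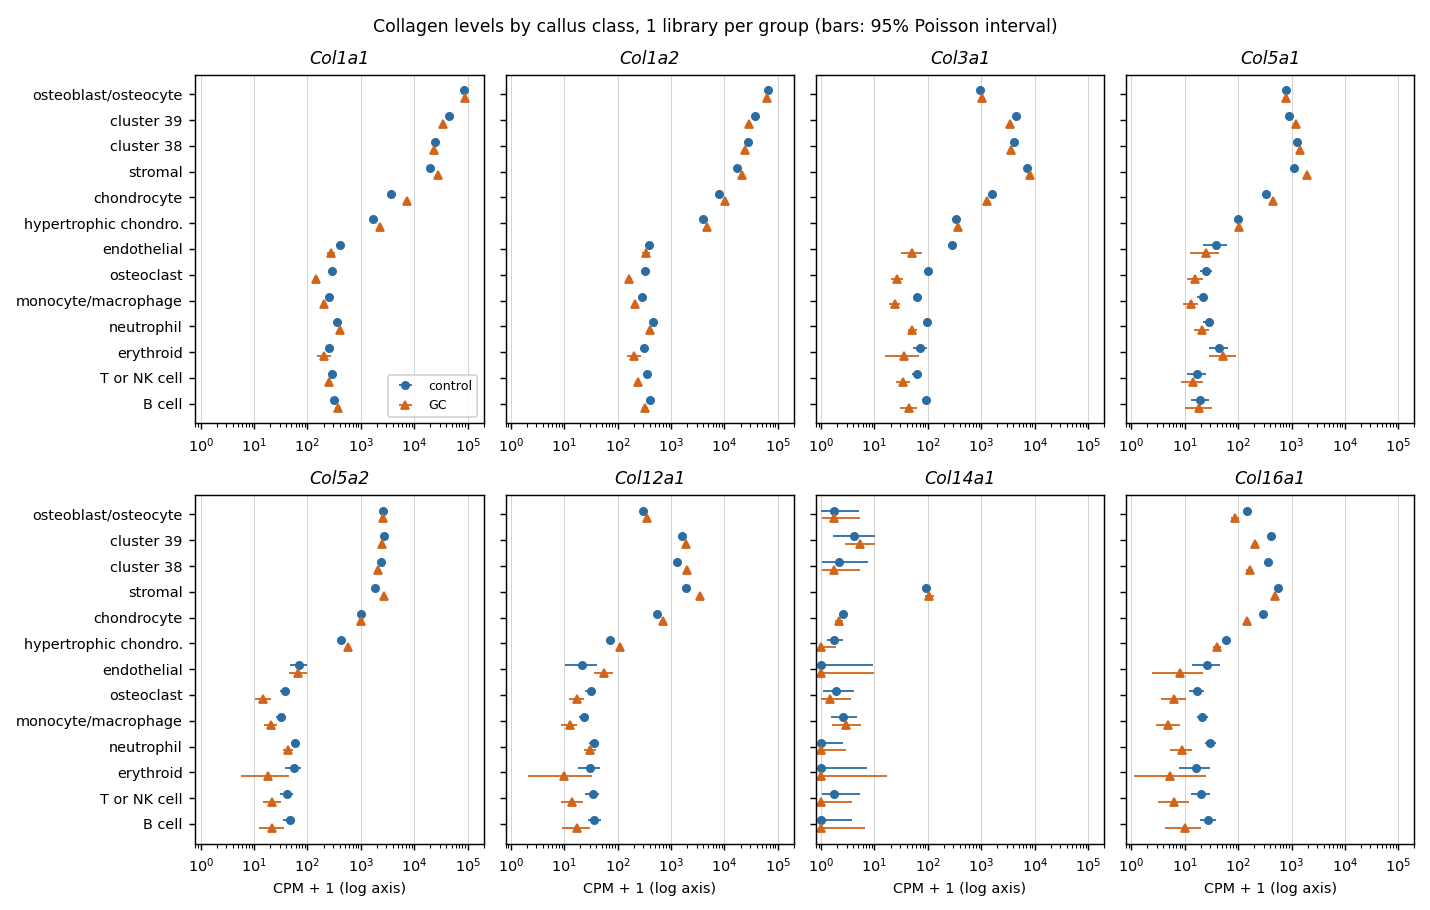
Level of each gene (CPM + 1, log axis) in 13 callus classes and clusters, with 1 point per library (control, circles; GC, triangles) and bars for the 95% Poisson interval. Type I collagen is highest in osteoblasts, Col3a1, Col12a1, Col14a1 and Col16a1 in stromal cells, and the blood classes share a low background in every gene.

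Col3a1 had another order. Stromal cells led with 7249 CPM in control and 8198 CPM in GC, while osteoblasts read 954.1 CPM (902.4 to 1008) and 1027 CPM (972.0 to 1084). Osteoblasts thus held 1.10 Col3a1 UMIs for every 100 of Col1a1 in control and 1.13 in GC, against 37.3 and 29.4 in stromal cells and 10.1 and 9.72 in cluster 39. The osteoblast intervals (1.04 to 1.17 and 1.07 to 1.19) overlapped, and the stromal ones did not (36.5 to 38.1 and 28.7 to 30.1). Col3a1 was not found in every osteoblast: after each cell was thinned to 1000 UMIs, 43.8% of 73 control cells and 34.9% of 83 GC cells held a Col3a1 UMI (1 and 3 shallower cells were left out). In B cells the thinned shares were 9.87% and 4.60%. The median depths were 12420 UMIs per control osteoblast, 12948 UMIs per GC osteoblast, 1928 UMIs per control B cell and 1704 UMIs per GC B cell. Without thinning, 78.4% and 68.6% of osteoblasts held a Col3a1 UMI.

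The chains of type V collagen were spread more evenly. Col5a2 read 2616 CPM in control and 2651 CPM in GC osteoblasts, 2721 and 2494 CPM in cluster 39, and 1842 and 2748 CPM in stromal cells. Col5a1 read 785.2 and 798.0 CPM in osteoblasts, 1273 and 1455 CPM in cluster 38, and 1114 and 1938 CPM in stromal cells. The ratio of Col5a2 to Col5a1 UMIs was 3.33 in control and 3.32 in GC osteoblasts, 1.65 and 1.42 in stromal cells, and 4.40 and 5.53 in hypertrophic chondrocytes. Such ratios are of 3' UMIs and are compared between classes only, not read as protein.

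The FACITs had their highest levels in stromal cells. Col12a1, which links fibrils in tissue under load, read 1864 CPM in control and 3535 CPM in GC stromal cells, 1298 and 1986 CPM in cluster 38, and only 295.0 and 359.2 CPM in osteoblasts. Col16a1 read 552.3 and 492.4 CPM in stromal cells, 405.2 and 209.8 CPM in cluster 39, 287.3 and 144.5 CPM in chondrocytes, and 145.6 and 86.7 CPM in osteoblasts. Col14a1 was the most restricted of the 8. It read 89.7 CPM (76.0 to 105.1) in control and 106.1 CPM (87.3 to 127.6) in GC stromal cells and 1 UMI in the osteoblasts of each library.

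The order of levels was not the order of totals. Osteoblasts were 1.10% of control and 1.25% of GC callus cells and held 27.2% and 22.8% of the Col1a1 UMIs in all cells. Chondrocytes, at lower levels but far greater number, held 45.4% and 46.6% of the Col1a1 UMIs and 75.8% and 63.7% of the Col3a1 UMIs. Their median depth was above that of osteoblasts in control and below it in GC. Stromal cells were 1.73% and 1.35% of cells and held 59.1% and 65.1% of the Col14a1 UMIs. The share of cells recovered from digested tissue need not be the share in the tissue. In bulk callus, fewer cells of a class and less RNA per cell could not be told apart.

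**Figure D2:**
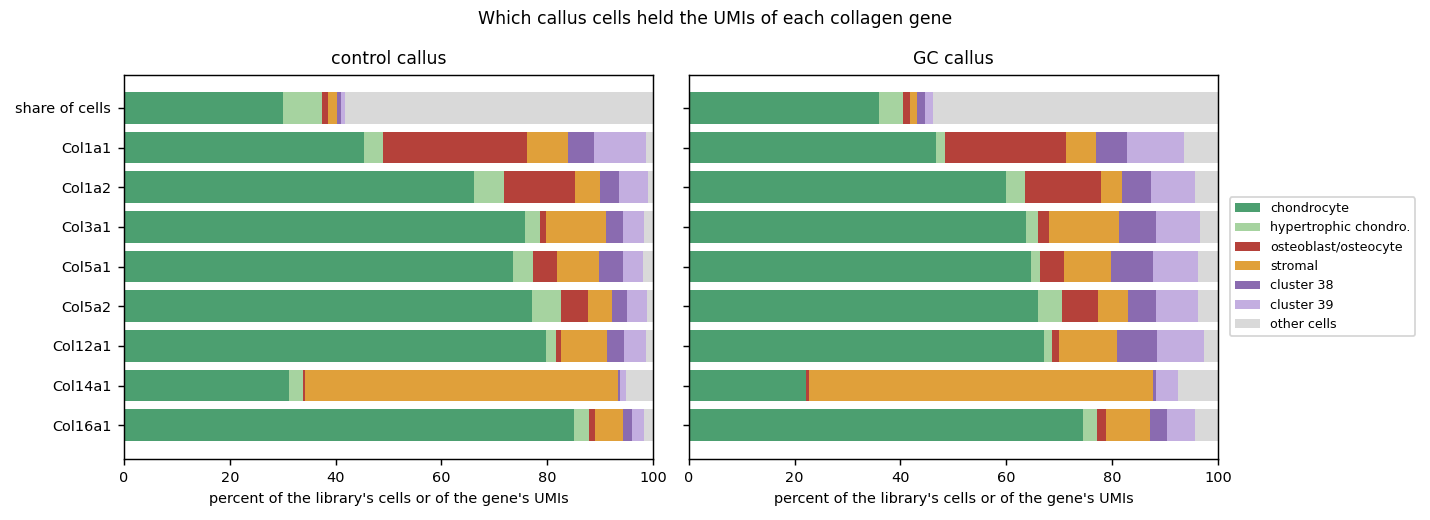
Percent of each library's callus cells (top bar) and of each gene's UMIs held by 6 cell classes or clusters, control at left and GC at right. Osteoblasts hold 27.2% and 22.8% of Col1a1 from about 1% of cells, stromal cells hold most Col14a1, and chondrocytes hold the largest part of the other 7 genes.

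Across the 16 callus classes and clusters in 2 libraries (32 points that share libraries, depth and background), 7 of the 8 genes had alike patterns, with Pearson's r of 0.88 to 0.99 between them. On log2(CPM + 5), r was 0.99 for Col1a1 with Col1a2, 0.99 for Col1a2 with Col5a2, and 0.98 for Col3a1 with Col16a1. Col14a1 had r of 0.40 to 0.57 with the other 7. Of 10921 other genes, those most like Col1a1 were Gxylt2 (0.97), Zbtb7c (0.97) and Cthrc1 (0.96). Those most like Col1a2 were Sp7, an osteoblast transcription factor (0.97), Itga10, a collagen-binding integrin (0.97), and Nupr1 (0.97). Col3a1 was most like Col6a3 (0.98), Fmod (0.97) and Col6a2 (0.97). Fmod encodes fibromodulin, a proteoglycan that binds collagen fibrils. Col5a1 was most like Itga10 (0.97), Col6a3 (0.97) and Kcnma1 (0.96), and Col5a2 like Itga10 (0.98), Sp7 (0.97) and Cryab (0.97). Col12a1 was most like Col6a3 (0.97), Sgcd (0.97) and Tnn (0.97), Col16a1 like Fmod (0.97), Ecrg4 (0.97) and the fibril-binding Lum (0.97), and Col14a1 like Sfrp2, Scn7a and Mfap4 (0.96, 0.96 and 0.95). These are descriptions of classes, not of shared control.

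The first GC comparison asked whether osteoblasts and stromal cells that remained in the GC callus carried less collagen message. A gene was measured in a class with at least 50 UMIs over both libraries and was called past 2-fold with a log2 ratio of GC over control, after 5 CPM was added, of at least 1 or at most -1. In osteoblasts, 0 of the 7 genes measured were past 2-fold in either direction, where 1.05% of 5325 genes were past it upwards and 0.958% downwards. The median log2 ratio was 0.02, as for all genes (0.02). Col1a1 had a log2 ratio of 0.07 (0.06 to 0.08), Col1a2 of -0.03 (-0.04 to -0.01), Col3a1 of 0.11 (-0.01 to 0.22), Col5a1 of 0.02 (-0.10 to 0.15) and Col5a2 of 0.02 (-0.05 to 0.09). The 5 fibril-forming genes thus had nearly the same level in both libraries. Col12a1 was higher in GC (0.28, 0.09 to 0.48) and Col16a1 lower (-0.72, -1.10 to -0.40), neither past 2-fold. Col14a1, with 1 UMI in each library, was not measured. When each library was clustered alone the class held 57 control and 231 GC cells. The median was then -0.68 with 2 genes past 2-fold downwards (2.23% of 6897 genes, whose median was 0.15). These 2 were the type I chains, Col1a1 (-1.20) and Col1a2 (-1.19). The even levels thus depend on which cells are put in the class.

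In stromal cells all 8 genes were measured and 0 were past 2-fold, where 0.8% of 6377 genes were past it upwards and 1.46% downwards. Their median log2 ratio was 0.42, against -0.01 for all genes, and 7 of 8 were above 0. Col12a1 stood out with 0.92 (0.85 to 0.99), followed by Col5a1 (0.80, 0.71 to 0.89), Col5a2 (0.58, 0.50 to 0.65), Col1a1 (0.52, 0.50 to 0.55), Col1a2 (0.31, 0.28 to 0.33) and Col3a1 (0.18, 0.14 to 0.22). Col14a1 was 0.23 with an interval across 0 (-0.12 to 0.60). Col16a1 was the only one below 0 (-0.16, -0.32 to -0.01). The share of stromal UMIs taken by the 8 genes was 4.96% in control and 6.66% in GC. Cluster 40, the largest of the stromal clusters (80 and 73 cells), gave log2 ratios of 0.49 for Col1a1, 0.77 for Col5a1 and 0.98 for Col12a1. With each library clustered alone (62 and 42 cells) the median was -0.76, the opposite direction, with 3 genes past 2-fold downwards, where 11.2% of 3312 genes were past it downwards and the median of all genes was 0.12.

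Cartilage transcripts did not move with the collagen values above. These transcripts were lower in GC osteoblasts, where the fibril-forming genes were nearly level. They were also lower in GC stromal cells, where most of the collagens studied here were higher. Beside cluster 40, the stromal class held cluster 42 (28 control and 11 GC cells) and cluster 44 (8 and 9). In cluster 42, 9 of the 13 chondrocyte markers were raised over the median of the other clusters. The part of this uneven makeup in the stromal values was not tested. Col2a1, the cartilage fibril collagen, read 5845 CPM in control and 2960 CPM in GC osteoblasts, and 4048 and 1144 CPM in stromal cells. The summed level of the 13 chondrocyte markers was 11433 CPM in control and 7033 CPM in GC osteoblasts, with 12 and 11 of 13 at 10 CPM or more, and 9201 and 4259 CPM in stromal cells, also with 12 and 11 of 13. The 12 osteoblast markers summed to 3320 CPM in control and 5566 CPM in GC stromal cells. The part of these other cells' RNA in the stromal collagen values was not tested. The 15 stromal markers summed to 6373 and 7081 CPM in stromal cells. In the chondrocytes themselves the 13 chondrocyte markers summed to 99156 CPM in control and 69854 CPM in GC. The background level of cartilage transcripts is not given here. The part of free cartilage RNA in the osteoblast and stromal values was not tested.

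In the unnamed clusters 38 and 39, 5 of the 7 genes measured had log2 ratios below 0. In cluster 39, Col1a1 had a log2 ratio of -0.35 (-0.37 to -0.34), Col1a2 of -0.32 and Col3a1 of -0.40, while Col5a1 was at 0.41 (0.29 to 0.53). There 0 of 7 genes were past 2-fold (background 1.57% upwards and 0.944% downwards). In cluster 38 Col16a1 was past 2-fold, with 361.9 CPM in control and 164.0 CPM in GC (-1.12, -1.40 to -0.88), the sole call of 7 (background 1.38% upwards and 1.58% downwards). Col12a1 in cluster 38 was at 0.61 (0.51 to 0.72). Both clusters were kept out of every named class because their markers did not name them. The marker lists that scored best were chondrocyte and then stromal in cluster 38. In cluster 39 they were hypertrophic chondrocyte and then chondrocyte, so osteoblast led in neither. With both clusters added to the osteoblasts, a setting chosen after the data were seen, the median log2 ratio of the 7 genes was -0.10 and none was past 2-fold.

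**Figure D3:**
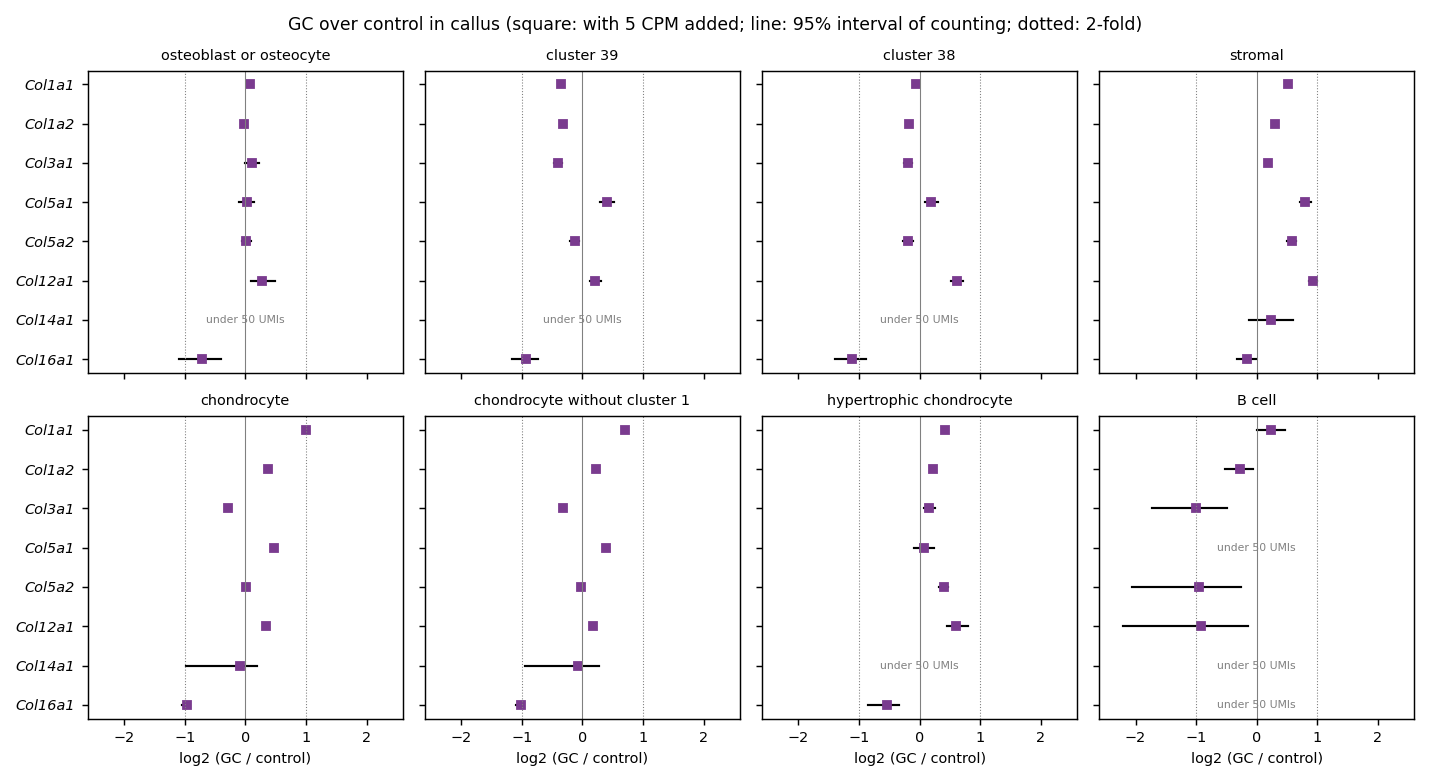
Log2 ratio of GC over control for each gene (squares, with 5 CPM added) in 7 callus skeletal classes or clusters and in B cells. Lines are 95% intervals of counting, dotted lines mark 2-fold, and Col16a1 lies below 0 in each skeletal panel while Col12a1 lies above it.

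In chondrocytes the type I chains separated. Col1a1 read 3673 CPM (3657 to 3690) in control and 7325 CPM (7296 to 7355) in GC, a log2 ratio of 0.99 (0.987 to 1.005), just short of 2-fold. Col1a2 read 8020.5 and 10394 CPM (0.37), so Col1a2 UMIs per Col1a1 UMI were 2.18 (2.17 to 2.20) in control and 1.42 (1.41 to 1.43) in GC. Col3a1 was lower in GC (1563 and 1284 CPM, -0.28), and Col16a1 was lower by nearly 2-fold (-0.97, -1.04 to -0.94). No gene of 8 was past 2-fold, where 0.292% of 13364 genes were past it upwards and 0.546% downwards. Chondrocytes differed in depth between the libraries, with median UMIs of 25027 in control and 9078 in GC. After thinning to 1000 UMIs, 65.6% of 1985 control and 81.2% of 2344 GC chondrocytes held a Col1a1 UMI (26 and 131 cells left out, 27.9% and 29.6% in B cells), and 98.6% and 98.7% did so unthinned.

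The Col1a1 difference was smaller without cluster 1, which held 76 control and 1217 GC chondrocytes at a median of 2597 UMIs. Within it Col1a1 read 4012 CPM in control and 16067 CPM in GC. A cluster that is mostly 1 library may be a feature of that library. Other chondrocyte clusters were uneven too. Cluster 4 held 19 control and 365 GC cells, cluster 29 held 31 and 176, and cluster 28 held 240 and 39. The makeup of the class thus differed between the libraries with or without cluster 1, and its part in the class values was not tested. Without cluster 1, a setting chosen after the data were seen, Col1a1 read 3671 CPM in control and 5943 CPM in GC (0.69), and the thinned shares were 65.2% and 66.6%. With cluster 1 included, 8 chondrocyte clusters had at least 15 cells in each library. Col1a1 was higher in GC in 6 of these 8 and lower in 2 (-0.43 to 2.00, median log2 ratio 1.08), cluster 1 being the highest. Col3a1, at -0.32 without cluster 1, and Col16a1 did not move towards 0. In the same 8 clusters, however, Col3a1 was higher in GC in 4 and lower in 4 (-0.94 to 0.38, median log2 ratio 0.07). Its lower value over the class was thus not shared by its clusters, whereas Col16a1 was lower in 8 of 8. Without cluster 1 the ratio of Col1a2 to Col1a1 was 2.18 and 1.57. Col16a1 became the only one of 8 past 2-fold, with 286.1 and 138.5 CPM (-1.02, -1.10 to -0.995), where 0.183% of 13132 genes were past it upwards and 0.685% downwards. The 13 chondrocyte markers summed to 98736 and 69004 CPM and the 12 osteoblast markers to 13644 and 22204 CPM in the same cells. The part of that shift in the Col1a1 value was not tested.

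In hypertrophic chondrocytes, which border the forming bone, Col1a1 was at 0.42 (0.38 to 0.46), Col3a1 at 0.16, Col5a2 at 0.40, Col12a1 at 0.60 (72.1 and 111.5 CPM) and Col16a1 at -0.53 (59.2 and 39.4 CPM). Cluster by cluster, Col1a1 was higher in GC in 3 of 5 clusters of this class (-1.04 to 2.70). Col3a1 was lower in 4 of 5 (median -0.30), against its value over the class, and Col16a1 was lower in 3 of 3. The libraries filled the clusters unevenly, with 322 control and 34 GC cells in cluster 33 and 27 and 112 in cluster 34. Of 7 genes measured, 0 were past 2-fold, where 0.862% of 9515 genes were past it upwards and 0.568% downwards. The 12 osteoblast markers summed to 8171 CPM in control and 16986 CPM in GC. With each library clustered alone (716 and 280 cells) the median was -1.22 and 6 genes were past 2-fold downwards, where 1.03% of 10445 genes were past it downwards and the median of all genes was -0.0111.

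The balance of the type I chains differed between classes and between libraries. Osteoblasts held 0.746 Col1a2 UMIs per Col1a1 UMI in control and 0.697 in GC, stromal cells 0.900 and 0.776, cluster 38 1.12 and 1.04, chondrocytes 2.18 and 1.42, and hypertrophic chondrocytes 2.40 and 2.10. Control B cells, at 1.27 (1.12 to 1.45), and control neutrophils, at 1.32 (1.204 to 1.44), lay at the level of the control empty droplets, 1.37 (1.30 to 1.43). In GC the B cells and neutrophils were at 0.884 (0.734 to 1.06) and 0.978 (0.884 to 1.08). The background of the GC callus was therefore richer in Col1a1 relative to Col1a2, and B cells held 29.0 Col3a1 UMIs for every 100 of Col1a1 in control and 11.6 in GC.

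**Figure D4:**
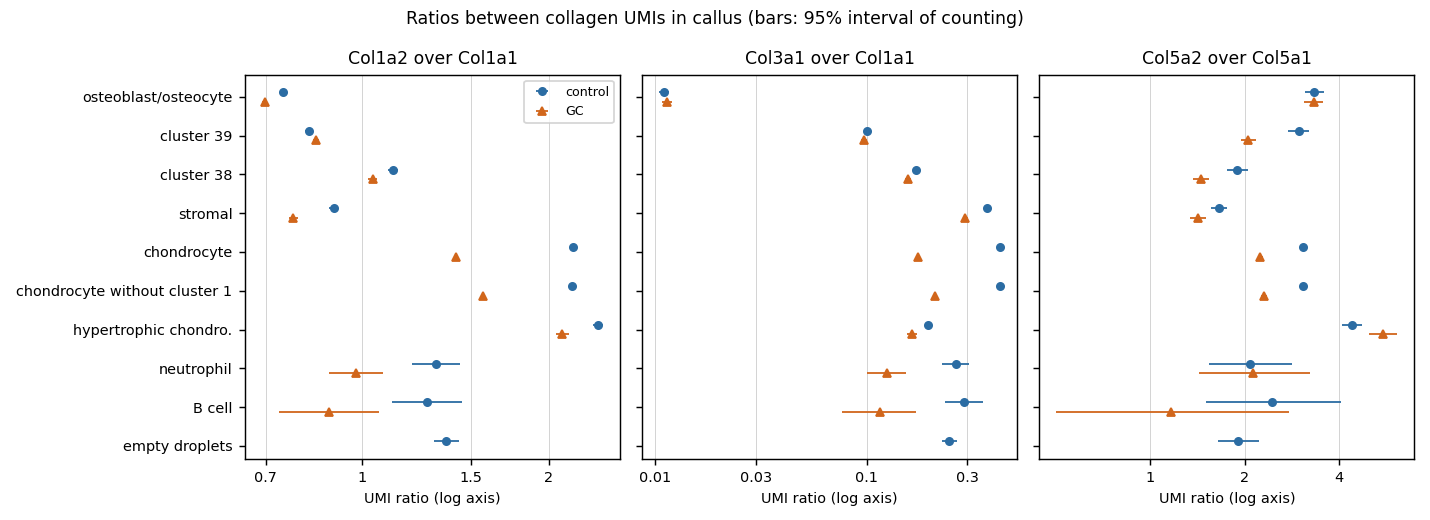
Ratio of UMIs between pairs of collagen genes (log axis) by callus class and in the empty droplets of the control library, with 95% intervals of counting. Col1a2 per Col1a1 is lowest in osteoblasts and highest in hypertrophic chondrocytes, and the control neutrophils and B cells lie at the empty droplets.

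Directions were then read cluster by cluster among skeletal clusters with at least 15 cells in each library. Col16a1 was lower in GC in 15 of 15 clusters (log2 -1.31 to -0.22). Col12a1 was higher in 14 of 16 (-0.45 to 1.76) and Col5a1 in 13 of 16 (-0.28 to 1.08). Col1a1 was higher in 11 of 17 (-1.04 to 2.70), Col1a2 in 9 of 17, Col5a2 in 10 of 17 and Col3a1 in 7 of 17. The clusters share 1 library per group, so their agreement is not replication. Col16a1 was also lower in the GC background, with 26.7 CPM (18.7 to 37.0) in control and 8.97 CPM (3.29 to 19.5) in GC B cells and 29.3 and 7.77 CPM in neutrophils. With the B cell level taken off, Col16a1 was at -0.08 in hypertrophic chondrocytes and -0.12 in stromal cells. It stayed below 0 in these classes, chondrocytes and osteoblasts under all alternatives. The clusters were not corrected so, and some lay near that background, such as cluster 4 (36.1 and 25.1 CPM). The part of the background in the cluster directions was not tested.

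The genes that make, process and bind collagen were examined in the same cells. Of 19 hydroxylation, glycosylation and folding genes, 15 were measured in osteoblasts and 17 in stromal cells and 0 were past 2-fold in either class (medians -0.08 and 0.06). P4ha1, a subunit of the prolyl hydroxylase that stabilises the helix, read 365.6 and 263.1 CPM in osteoblasts (-0.47), and Ppib, a prolyl isomerase, read 688.7 and 457.4 CPM in stromal cells (-0.59). Plod3, a lysyl hydroxylase, was highest of the list in osteoblasts (0.49) and at 0.56 in stromal cells. Of 9 secretion genes 0 were past 2-fold in either class, with Kdelr2, which returns proteins to the endoplasmic reticulum, at -0.57 in osteoblasts. Of 8 propeptide cleavage genes 4 were measured in each class and 0 were past 2-fold. Bmp1, the C-propeptide cleaving enzyme, read 458.7 and 379.5 CPM in osteoblasts and 191.2 and 205.5 CPM in stromal cells.

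Of 6 crosslinking genes in stromal cells, 2 were past 2-fold upwards and 0 downwards, beside 0.8% and 1.46% of all genes. They were Lox, with 358.8 CPM in control and 743.4 CPM in GC (1.04, 0.90 to 1.21), and Loxl2, with 168.8 and 385.4 CPM (1.17, 0.97 to 1.41), both lysyl oxidases. The others of that family did not pass 2-fold, with log2 ratios of -0.49 for Loxl1, -0.23 for Loxl3 and 0.71 for Loxl4, nor did the transglutaminase gene Tgm2 (-0.22). In osteoblasts 0 of 5 genes were past 2-fold, and the median log2 ratio was -0.36. Lox was at 0.25 and Loxl2 at 0.28, while Loxl4 (-0.36), Loxl3 (-0.47) and Tgm2 (-0.59) were below 0. Among non-fibrillar collagens, Col6a2 was past 2-fold upwards in stromal cells (991.4 and 2088 CPM, 1.07). In the same list 4 of 13 were past it downwards, beside 1.46% of all genes, the lowest being the cartilage collagens Col9a2 (554.7 and 108.0 CPM, -2.31) and Col9a3 (-2.23). In osteoblasts 3 of 8 were past 2-fold downwards, beside 0.958% of all genes, Col10a1 (1134 and 363.1 CPM, -1.63) and Col9a2 (-1.41) being lowest. The part of free cartilage RNA in the cartilage collagen values of both classes was not tested. The non-fibrillar list also held Col11a2, a fibril-forming collagen, which was not past 2-fold in stromal cells (-0.98) or osteoblasts (-0.26). In the list of other fibril-forming collagens, which held Col11a2 too, Col2a1 was past 2-fold in stromal cells (-1.82) and at -0.98 in osteoblasts.

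Of fibril-binding proteins, 1 of 12 measured in stromal cells was past 2-fold downwards, beside 1.46% of all genes. It was Dpt, a dermatopontin that speeds fibril assembly (37.2 and 8.52 CPM, -1.64). Postn, periostin, was the highest of that list in both classes, with 119.4 and 187.4 CPM in osteoblasts (0.63) and 1114 and 1999 CPM in stromal cells (0.84). Of degradation genes, 1 of 9 measured in stromal cells was past 2-fold downwards, beside the same 1.46%. It was Mmp9 (558.2 and 40.7 CPM, -3.62). Mmp9 is also an osteoclast and neutrophil gene. Mmp13, a collagenase, read 1200.3 and 1814 CPM in osteoblasts (0.59) and 2145 and 1100.4 CPM in stromal cells (-0.96). In osteoblasts Timp3 was the lowest of the degradation list (683.9 and 343.5 CPM, -0.98), and 0 of 8 were past 2-fold. Receptors and regulators had 0 past 2-fold in either class. Sp7 was the lowest regulator in osteoblasts (182.4 and 116.3 CPM, -0.63), and Tgfb3 the highest in osteoblasts (0.81) and in stromal cells (0.73). Of 9 glucocorticoid response genes, 8 were measured in each class and 0 were past 2-fold (medians 0.29 in osteoblasts and -0.20 in stromal cells). In osteoblasts Fkbp5 read 14.3 and 28.9 CPM (0.81, 0.18 to 1.90) and Sgk1 read 932.3 and 1412 CPM (0.60), while Tsc22d3 (-0.16) and Cebpd (-0.18) were lowest. In stromal cells Sgk1 (0.47) and Nr3c1 (-0.10) were highest, and Cebpd (-0.42) and Per1 (55.5 and 28.4 CPM, -0.86) were lowest.

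Trabecular bone held few cells that carried the 8 genes. Its stromal class was 18 of 3820 control and 44 of 4603 GC cells, made of cluster 25 (10 and 32 cells) and cluster 36 (8 and 12 cells). All 15 stromal markers were at 10 CPM or more in both libraries. The class also carried other cells' markers. The 9 endothelial markers summed to 521.3 CPM in control and 773.5 CPM in GC, with 7 and 8 of 9 at 10 CPM or more. The 10 neutrophil markers summed to 10219.5 and 26110.5 CPM, and the 9 pericyte markers to 69.0 and 1479 CPM, with 2 and 9 of 9 at 10 CPM or more. The 9 erythroid markers summed to 1579 and 20396.5 CPM. The 12 osteoblast markers were lower in GC in sum, with 4899 CPM in control and 1536 CPM in GC, although 6 and 9 of 12 were at 10 CPM or more. The makeup of the class thus differed between the libraries, and its part in the values below was not tested. After thinning, 0 of 312 control B cells held a Col1a1 UMI, which allows a share of up to 0.962% (3 counts of the total; the exact 95% interval reached 1.18%), and the empty droplets read 21.5 CPM in control and 31.4 CPM in GC, so the background was low.

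Col3a1 was the gene with the widest gap. It read 5903 CPM (5494 to 6335) in the control and 242.4 CPM (188.2 to 307.3) in the GC stromal cells, a log2 ratio of -4.58 (-4.99 to -4.25). After thinning to 1000 UMIs, 12 of 16 control cells (75%, 47.6 to 92.7) and 4 of 43 GC cells (9.30%, 2.59 to 22.1) held a Col3a1 UMI, with 2 and 1 cells left out. Unthinned, the shares were 72.2% and 25%, at median depths of 7817 and 5872 UMIs. In GC, 1 cell held 67.6% of the Col3a1 UMIs. The gap was present in both clusters: 8124 and 296.0 CPM in cluster 25 and 3714 and 147.8 CPM in cluster 36. Col5a1 read 460.0 and 192.5 CPM (-1.24, -1.81 to -0.70), Col5a2 812.7 and 409.9 CPM (-0.98), and Col12a1 690.0 and 406.4 CPM (-0.76). Of the 6 genes measured 2 were past 2-fold downwards and 1 upwards, where 7.17% and 7.09% of 1256 genes were past it. Col14a1 (26 and 14 UMIs) and Col16a1 (34 and 13 UMIs) were under the minimum.

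Type I collagen in this class turned on 1 cell. Summed over cells, Col1a1 read 5804 CPM in control and 14390.2 CPM in GC (1.31, 1.198 to 1.42), and Col1a2 read 6455 and 8102 CPM (0.33). A single GC cell held 3923 of the 4037 Col1a1 UMIs, 97.2%, and 274 of the 274 Ibsp UMIs of its class (Ibsp encodes bone sialoprotein, an osteoblast product). Of other osteoblast genes that cell held 8 of the 13 Bglap, 16 of the 34 Alpl and 6 of the 9 Sp7 UMIs and no Dmp1, Phex or Mepe UMI. The control cell with most Col1a1 held 12 of 12 Ibsp, 102 of 293 Bglap and 29 of 77 Alpl UMIs. Without the cell of most Col1a1 UMIs in each library, a setting chosen after the data were seen, Col1a1 read 4026 CPM in control and 447.5 CPM in GC (-3.16), the opposite direction. Then 5 of 6 genes were past 2-fold downwards, with a median of -2.43 (7.13% of 1122 genes were past it downwards, and the median of all was -0.0405), Col1a2 standing at -2.55 and Col3a1 at -3.96. The median cell read 1186 CPM of Col1a1 in control and 136.4 CPM in GC. In control the cell with most Col1a1 held 37.5% of the UMIs, and 13 of 18 cells held at least 1.

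**Figure D5:**
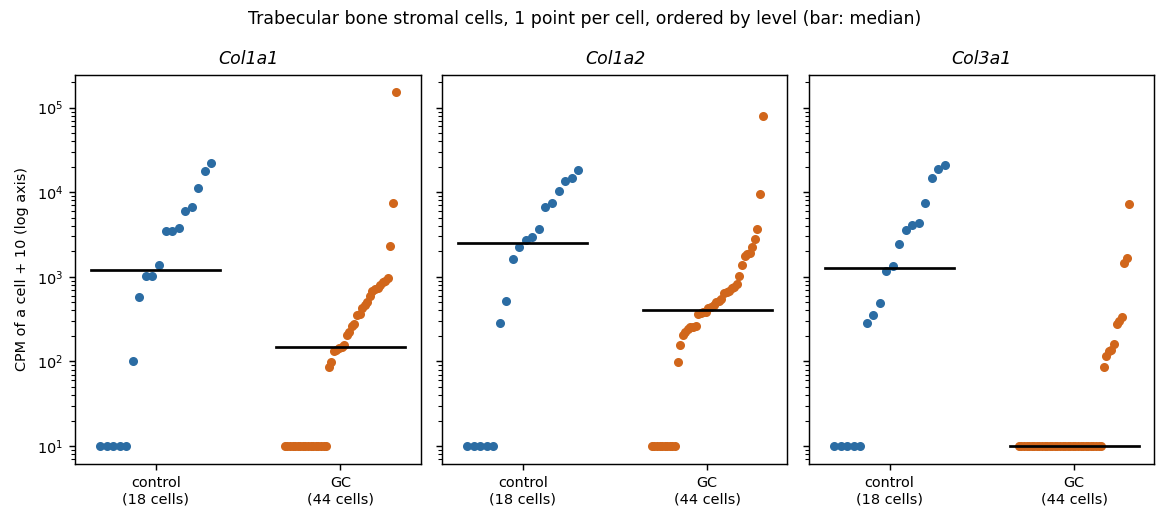
Level of Col1a1, Col1a2 and Col3a1 in each trabecular bone stromal cell (CPM + 10, log axis; 18 control and 44 GC cells, ordered by level, bar at the median). The control medians lie above the GC medians, the groups overlap, and a lone GC cell lies above all others for both type I chains.

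Some Col5a1 UMIs were found in erythroid cells of trabecular bone. Col5a1 read 26.9 CPM (21.7 to 33.1) in control and 18.1 CPM (14.2 to 22.6) in GC erythroid cells, and the empty droplets read 4.30 CPM (0.521 to 15.5) and 13.8 CPM (5.53 to 28.3). The control value lay above the droplets' interval and the GC value within it. Before thinning, 33 of 329 control cells (10.0%, 7.01 to 13.8) and 28 of 573 GC cells (4.89%, 3.27 to 6.99) held Col5a1 UMIs, 91 and 76 in all and up to 11 and 16 in a cell. Col5a2 was at 0 UMIs in both, and Col1a1 at 2 and 8 UMIs. Neutrophils read 3.36 and 6.49 CPM of Col5a1 and 3.36 and 8.21 CPM of Col1a1, all below the droplets' values and not read as expression. In the stromal cells of the same libraries Col5a2 exceeded Col5a1 (106 against 60 UMIs in control and 115 against 54 in GC). For the erythroid cells without Col5a2 the exact 95% interval reached 1.11% of cells in control and 0.642% in GC.

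Col3a1 was also lower in GC in the endothelial class of the callus (52 control and 79 GC cells). Col3a1 read 283.3 CPM (235.5 to 338.0) in control and 49.8 CPM (30.8 to 76.1) in GC, a log2 ratio of -2.40 (-3.25 to -1.83). Col1a1 there read 400.8 and 274.8 CPM (-0.54). In control the endothelial Col3a1 level lay above that of B cells (92.0 CPM) and in GC it did not (43.3 CPM, 29.0 to 62.3). After thinning, 6 of 50 control and 2 of 71 GC endothelial cells held a Col3a1 UMI, so few cells carried it.

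The small blood classes of the callus carried less than the skeletal ones. Mast cells or basophils (26 control and 16 GC cells) read 650.5 and 123.2 CPM of Col1a1 (-2.35, -3.05 to -1.80) and 605.4 and 114.1 CPM of Col1a2. Plasma cells (21 and 20) read 239.0 and 774.3 CPM of Col1a1 (1.68, 1.24 to 2.17) and 252.2 and 463.6 CPM of Col1a2. Osteoclasts read 290.7 and 146.3 CPM of Col1a1, dendritic cells 291.4 and 165.8 CPM, T or NK cells 283.4 and 255.5 CPM, macrophages 247.4 and 207.5 CPM and erythroid cells 256.8 and 204.6 CPM. The B cell background was 316.7 and 373.7 CPM, so the control mast cells and the GC plasma cells alone of these values lay above it. In all of these classes Col14a1 was at 4.56 CPM or less. In trabecular bone the blood classes of at least 15 cells held 33.4 CPM or less of each gene.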

How the data were processed

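Single-cell RNA of 4 libraries, 1 for each group, was read from gene by barcode matrices of whole UMI counts deposited by the authors. Processing notes name Cell Ranger 5.0.1, Seurat 3.2.0 and build mm10, whereas the file headers name Cell Ranger 4. The aligner's settings and cell filters are not given in the sources used here. From these counts, barcodes of at least 500 UMIs were called as cells by a UMI cutoff or a test against empty droplets (false discovery rate 0.01) in 3 libraries. In GC callus all listed barcodes were taken, without cutoff or test. Cells with under 200 genes, over 10% mitochondrial UMIs or a doublet score in the top 0.8% per 1000 cells were removed. Leiden clustering (resolution 1, leidenalg 0.10.2, Python 3.11.15, scipy 1.17.1) used 2000 variable genes without the 8 collagens, and clusters were named from marker lists with at least 3 detected markers. UMIs were summed per class and library and scaled to CPM. Intervals at 95% are exact Poisson, exact binomial (Clopper-Pearson) or exact conditional (ratios). With 1 library for each group no test across samples was possible. Scripts were tested on simulated data. By rule, all 8 collagens were measured in every class of at least 15 cells in each library (blood classes are given in brief), with the 2 highest and 2 lowest of each pathway list and the 3 genes most like each collagen. The other genes, clusters and cells singled out were chosen after their values were seen. The genes and lists were chosen with earlier results of these data known. Alternatives changed cell calling, filters, clustering, scaling, pseudocount and minimum UMIs. Gene models were GENCODE M21 on GRCm38, matched by Ensembl ID. The coding stretch of 1 of the 8 genes is not reported here.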

Additional observations from a re-analysis of the deposited data

Results flagged for a closer look

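GC over control ratios of stromal cells went opposite ways in trabecular bone and callus for 4 collagens. The log2 ratio in trabecular bone minus that in callus was -4.76 for Col3a1, -2.03 for Col5a1, -1.55 for Col5a2 and -1.68 for Col12a1. The difference was not tested, since each group was 1 library. Under alternatives these directions did not all hold. With each library clustered alone the callus ratios were -1.12 for Col3a1, -0.15 for Col5a1, -0.20 for Col5a2 and -0.42 for Col12a1, and callus Col3a1 was also below 0 at Leiden resolution 0.5 and with the collagens among the variable genes. Trabecular Col12a1 was at 0.41 as a mean over cells and at 0.0473 with cells thinned. The trabecular class held 18 control and 44 GC cells. Its pericyte markers summed to 69.0 CPM in control and 1479 CPM in GC, and its osteoblast markers to 4899 and 1536 CPM. Their part in these differences was not tested.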

How the results depend on the processing

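Of 685 log2 ratios recomputed under alternatives, 403 moved by less than their counting interval, 279 moved by more and 3, of ratios past 2-fold, turned sign. Ratios short of 2-fold turned sign in 68 more, 17 of them with each library clustered alone. Of the 685, 36 and 34 came from the minimum of 20 and of 200 UMIs, settings that cannot change a ratio. The 3 past 2-fold that turned sign were Col1a1 in trabecular stromal cells. They were -0.16 as a mean over cells, -0.0509 with cells thinned to 1000 UMIs and -3.16 without the cell of most Col1a1 UMIs. That cell's removal left 0 collagens past 2-fold upwards and 5 downwards, beside 7.58% and 7.13% of all genes, with a median of -2.43. In trabecular stromal cells 0 were past it upwards as a mean over cells or thinned, and 4 downwards with a minimum of 20 UMIs or 1 with 200. For these settings no share of all genes is given. Median log2 ratios in osteoblasts were -0.0774 at Leiden resolution 0.5, -0.0865 at 2, 0.0939 with at least 500 genes, -0.68 with each library clustered alone and -0.10 with clusters 38 and 39. There 1 collagen was past 2-fold downwards without doublet removal (beside 0.876% of all genes) and 1 with cells above the UMI cutoff only (1.18%). With each library clustered alone 2, Col1a1 and Col1a2, were past it downwards (2.23%). In callus the cutoff setting removed control cells only, because GC callus had no cutoff and all its listed barcodes were counted as above it. The values above the cutoff, in every callus class, thus set control cells chosen by depth against GC cells that were not. In stromal cells medians were 0.23 at resolution 0.5, 0.59 with at least 500 genes, 0.29 above the cutoff, 0.26 thinned and 0.26 as a mean over cells. They were 0.25 with the collagens among the variable genes, 0.24 without doublet removal and -0.76 with each library clustered alone. In that last setting 3 were past 2-fold downwards, beside 11.2% of all genes. In chondrocytes medians were 0.15 without collagen UMIs in the total, 0.35 at resolution 2, 0.41 with at least 1000 genes, 0.43 above the cutoff, 0.36 with each library clustered alone, 0.34 with a minimum of 200 UMIs and 0.0778 without cluster 1. There 1 collagen was past 2-fold upwards at either resolution, with at least 1000 genes, above the cutoff, with each library alone and without doublet removal. In those settings 0.239% to 0.323% of all genes were past it upwards. The count was also 1 with the B cell level taken off, thinned and as a mean over cells, where no share of all genes is given. It was 1 downwards without cluster 1 (beside 0.685% of all genes) and 1 when thinned. In hypertrophic chondrocytes medians were 0.45 with the B cell level taken off, 0.55 at resolution 0.5, 0.0477 at 2, 0.13 with at least 1000 genes, 0.62 with at least 500, 0.42 with at most 5% mitochondrial UMIs, 0.0927 above the cutoff, 0.28 thinned, 0.26 as a mean over cells, 0.46 with the collagens among the variable genes, 0.45 without doublet removal and -1.22 with each library alone. There 1 was past 2-fold upwards at resolution 0.5 (beside 0.438% of all genes) and 1 with the collagens among the variable genes (0.839%). It was 2 with at least 500 genes (0.531%), and 1 with the B cell level taken off, where no share of all genes is given. Downwards it was 1 at resolution 2 (0.495%), 1 above the cutoff (0.438%) and 6 with each library alone (1.03%). The cause of these moves was not tested. Leaving out cluster 1, cluster 36 or the cell of most Col1a1, and adding clusters 38 and 39, were chosen after seeing the data. Trabecular stromal cells were not run above the cutoff, with at least 1000 genes, at most 5% mitochondrial UMIs or each library alone, since the control then held 11 to 14 cells. No paired analysis was possible because each group was 1 library and the result comes from no test.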
